A study of Mus musculus with 6 samples.

Results

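Reactive astrocytes are recognised by a small set of transcripts, and 6 of these were followed here: Gfap, Vim, Serpina3n, Cd44, Osmr and S1pr3. They were taken by symbol from the gene list of the deposited count files, where each symbol occurs with a single identifier, and they are 6 of 19465 genes. Spatial transcriptomics (Visium, FFPE) was done on coronal sections of the brain from male C57BL/6J mice, with 2 biological replicates each at postnatal day 21 (P21), in adults (12 to 15 weeks) and in aged mice (28 months). No allele, treatment or operation is named for any group. P21 and adult sections lay directly on Visium v1 slides, whereas aged sections were transferred by CytAssist onto Visium v2 slides. Per the labels the aged mice were bought from the National Institute on Aging, the adults came from Jackson Laboratory and the P21 mice were bred. The study's methods name only Jackson Laboratory. Counts of aged sections also came from another version of the counting software. The study's methods also describe an enhanced probe design for the aged libraries, meant to capture transcripts more sensitively. In aged vs. adult the effects of age, slide version, probe design, mouse source and software version therefore cannot be told apart. P21 vs. adult lies within the same slide version, but by the labels the source of the mice differs there too.

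Astrocytes answer injury, inflammation and ageing with a change of state called reactivity. In that state they build more intermediate filament, secrete acute phase proteins and complement, and carry more receptors for cytokines, matrix and lipid mediators. Gfap and Vim encode the filament proteins glial fibrillary acidic protein and vimentin. Serpina3n encodes a secreted serine protease inhibitor. Cd44 encodes a hyaluronan and osteopontin receptor, Osmr the oncostatin M receptor subunit that signals with gp130 through JAK and STAT3, and S1pr3 a G protein-coupled receptor for sphingosine-1-phosphate. These genes are not restricted to astrocytes. Vim is also used by endothelial, meningeal and ependymal cells, and Cd44 by immune cells. A Visium spot covers several cells, so more cells with a transcript and more transcript per cell cannot be told apart.

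The genes lie on 5 chromosomes of GRCm38, by GENCODE vM21: Gfap (ENSMUSG00000020932) at chr11:102887336-102900912 on the minus strand, Vim (ENSMUSG00000026728) at chr2:13573927-13582826 on the plus strand, Serpina3n (ENSMUSG00000021091) at chr12:104406729-104414329 on the plus strand, Cd44 (ENSMUSG00000005087) at chr2:102811141-102901665 on the minus strand, Osmr (ENSMUSG00000022146) at chr15:6813577-6874969 on the minus strand and S1pr3 (ENSMUSG00000067586) at chr13:51408639-51422797 on the plus strand. All 6 are protein-coding. Serpina3n lies in a tandem cluster of related serpin genes, and whether its probes also bind a paralog was not tested.

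The windows before the RefSeq starts of the members (GRCm38.p6, 250 bases before to 20 bases after the start) were searched on both strands, because the members moved together in the white matter as described further on. The patterns were TTCNNNGAA (the letters bound by STAT factors), TATAAA (the TATA box) and TGANTCA. The last is a loose form of the AP-1 letters, which have C or G in the middle. The Osmr match given below has T there. A match is a description of letters and not a site. Of the 6 windows, 1 held each motif, and 3 held none. TTCNNNGAA was in 8.30% of all 32851 promoter windows, TATAAA in 13.6% and TGANTCA in 7.81%. These shares were taken over the windows as supplied, which were not cut at 20 bases after the start. The 3 windows with a match are given 5′ to 3′ with the match in capitals. They are Gfap at chr11:102897181-102897450 (minus strand, TTCCAGGAA beginning at position -2 from the start), Vim at chr2:13574061-13574330 (plus strand, TATAAA at -32) and Osmr at chr15:6874294-6874563 (minus strand, TGATTCA at 3).
Gfap: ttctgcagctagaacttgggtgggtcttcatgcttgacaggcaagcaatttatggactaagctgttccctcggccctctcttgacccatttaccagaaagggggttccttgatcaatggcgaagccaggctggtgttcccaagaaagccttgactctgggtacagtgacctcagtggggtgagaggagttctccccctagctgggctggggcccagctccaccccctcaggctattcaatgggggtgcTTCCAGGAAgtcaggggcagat
Vim: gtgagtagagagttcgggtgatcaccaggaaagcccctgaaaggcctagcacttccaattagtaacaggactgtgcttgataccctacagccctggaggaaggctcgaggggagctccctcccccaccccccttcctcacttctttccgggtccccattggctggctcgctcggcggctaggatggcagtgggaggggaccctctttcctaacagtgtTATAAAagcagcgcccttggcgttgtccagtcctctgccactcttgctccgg
Osmr: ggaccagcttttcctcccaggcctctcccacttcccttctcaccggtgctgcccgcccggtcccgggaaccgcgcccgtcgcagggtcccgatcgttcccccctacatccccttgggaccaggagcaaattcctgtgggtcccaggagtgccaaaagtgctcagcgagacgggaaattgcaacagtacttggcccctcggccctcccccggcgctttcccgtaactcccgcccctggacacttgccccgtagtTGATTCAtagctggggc

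After removal of spots with fewer than 250 genes or 500 UMIs, 20336 spots remained, with 2917 to 3679 spots and a median of 12074.5 to 25535 UMIs per spot in a section. Spots were clustered without the members and named from marker panels, which gave the cortex (CTX, 4531 spots), hippocampus (HP, 1930), thalamus (TH, 3355), hypothalamus (HY, 3444), striatum (STR, 1144), fiber tracts (FT, 2118), reticular thalamus (RT, 276), a zone of pia and large vessels (PIA, 1073) and a cluster led by Cyp26b1 that met no panel (Cyp26b1-led, 2030). The ventricular system (VS, 210), the medial habenula (225) and CA3 (210) had fewer than 20 spots in at least 1 section and were not tested. UMIs were summed per section and zone. Levels are CPM (the usual counts-per-library-size unit, here on the UMIs of a zone, scaled by TMM except in the parts of the FT, the distance profiles and the untested zones), folds are log2 fold changes with standard errors (SE), and the test is edgeR's quasi-likelihood test with Benjamini-Hochberg adjustment over all genes of a zone. Calls needed a fold change above 1.5 beside an adjusted p below 0.05. CPM of different genes rest on different probes and are not set against each other.

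Among the 9 zones, the filament genes were highest in adults at the surface and in the white matter, and Serpina3n in the hippocampus. In the adult sections Gfap stood at 885 and 818 CPM in the PIA and at 656 and 725 CPM in the FT, while the CTX held 64.4 and 58.7 CPM. Vim stood at 227 and 277 CPM in the adult PIA, 59.8 and 69.7 CPM in the FT and 17.4 and 14.6 CPM in the CTX. Among the 9 zones both filament genes had their lowest adult mean in the CTX. For Vim this mean (16.0 CPM) was close to that in the Cyp26b1-led cluster (17.8 CPM). Parts of the adult HP were lower in mean Vim, with 12.1 CPM in CA1, 9.45 CPM in CA3 and 14.9 CPM in the dentate gyrus. Vim was higher at the surface than in the white matter. The adult level of Serpina3n was 28.1 and 32.9 CPM in the HP, 10.4 and 14.1 CPM in the HY, 14.8 and 9.07 CPM in the PIA and 9.69 and 8.59 CPM in the FT, so the hippocampus led.

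Among these zones Osmr and S1pr3 were highest at the surface in adults. Osmr was at 19.6 and 17.5 CPM in the adult PIA and at 2.26 to 7.63 CPM in the adult sections of the other 8 zones. S1pr3 was at 29.2 and 19.4 CPM in the adult PIA and at 12.9 and 7.43 CPM in the FT. Cd44 was at 23.1 and 12.96 CPM in the PIA, 18.9 and 8.19 CPM in the TH, and 13.4 and 15.9 CPM in the FT. The 2 adult sections of Cd44 lay far apart in the PIA and the TH, so these levels had no clear order.

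**Figure D1:**
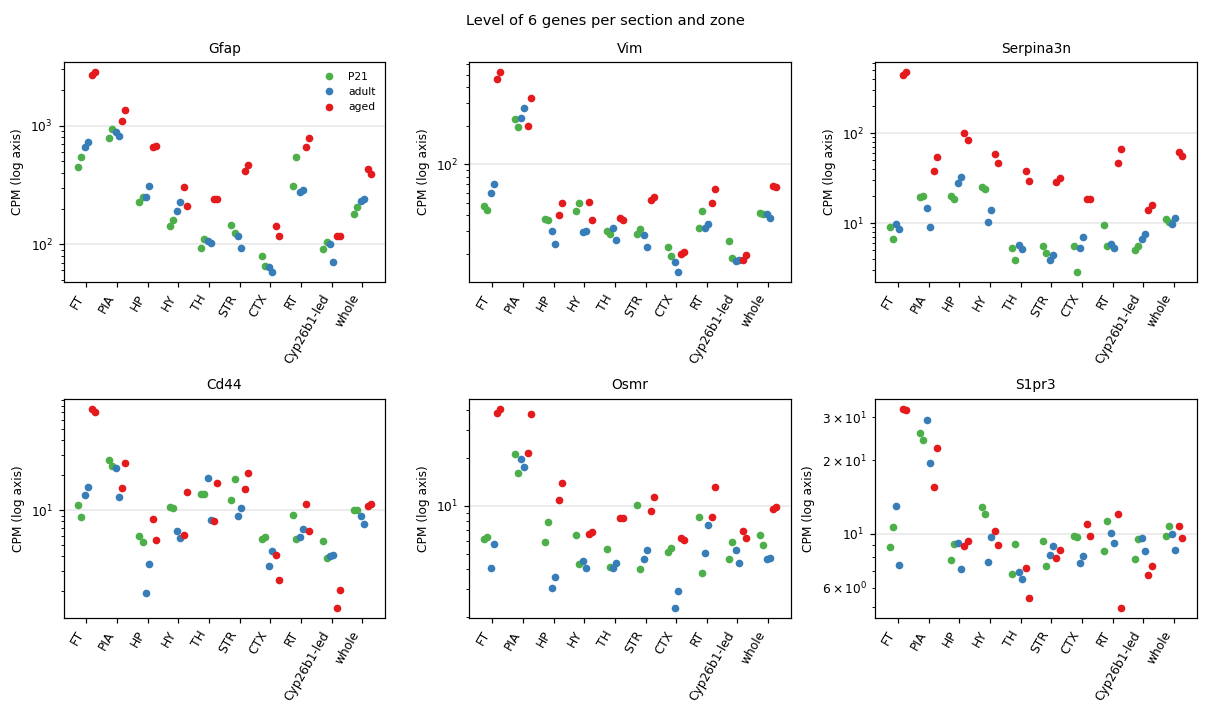
Level of each member in CPM (log axis) by zone, with 1 point per section coloured by age. The FT points of the aged sections stand apart from the 4 younger ones for all 6 genes, for example Serpina3n at 441 and 480 CPM against 6.66 to 9.69 CPM, while the PIA points of Vim, Cd44 and S1pr3 overlap between ages.

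A model with the section as a block placed each zone against the mean of the other zones, pooled over the 3 ages, so that the aged sections enter these levels. All 6 members differed in the FT, each toward a higher level, from 0.59 for S1pr3 (SE 0.09, adjusted p = 2.57e-07, edgeR) to 2.14 for Gfap (SE 0.05, adjusted p = 5.63e-31), and 66.6% of all genes differed there in either direction. All 6 also differed in the PIA, each toward a higher level, from 0.48 for Serpina3n (SE 0.13, adjusted p = 0.00197) to 2.64 for Vim (SE 0.06, adjusted p = 6.91e-31), against 53.6% of all genes. The level of Serpina3n in the PIA no longer passed the test without adult section 1 (0.27, adjusted p = 0.285), in core spots with no neighbour outside the zone (0.07, adjusted p = 0.997) or with zones from panel scores (0.04, adjusted p = 0.850). For several members the pooled FT value rests on the aged sections: Serpina3n had a mean of 7.92 CPM at P21, 9.14 CPM in adults and 460 CPM in aged sections there, and Osmr 6.28, 4.93 and 39.7 CPM. Among neighbours in the pooled order, Gfap in the FT and in the PIA did not differ beyond the spread (0.14, SE 0.08, adjusted p = 0.179), nor did Cd44 (0.17, SE 0.22, adjusted p = 0.568), but this pools opposite differences. Mean Gfap was 497 CPM in the FT and 868 CPM in the PIA at P21, and 2760 and 1218 CPM in aged sections, and mean Cd44 was 9.99 and 25.7 CPM at P21 and 73.1 and 20.6 CPM in aged sections. Pooled over ages, Vim was higher in the PIA than in the FT by 0.97 (SE 0.08, adjusted p = 5.76e-13), Osmr by 0.94 (SE 0.14, adjusted p = 3.87e-07) and S1pr3 by 0.54 (SE 0.13, adjusted p = 5.54e-04). The means of the aged sections had the other order, with Vim at 491 CPM in the FT and 264 CPM in the PIA, Osmr at 39.7 and 29.8 CPM and S1pr3 at 32.3 and 19.0 CPM. Serpina3n was higher in the HP than in the FT by 0.27 (SE 0.11, adjusted p = 0.0243) and in the FT than in the HY by 0.48 (SE 0.12, adjusted p = 4.41e-04). By age, its mean in the FT was below that in the HY at P21 (7.92 and 24.6 CPM) and in adults (9.14 and 12.2 CPM) and above it in aged sections (460 and 52.8 CPM). For S1pr3 no pair of neighbours differed among the 7 zones from the CTX down to the TH. These steps do not compare zones farther apart. Against the mean of the other zones S1pr3 was lower in the TH (-0.58, SE 0.08, adjusted p = 8.71e-08). It was also lower in the STR (-0.32, adjusted p = 0.0261), the Cyp26b1-led cluster (-0.28, adjusted p = 0.0101) and the HP (-0.23, adjusted p = 0.0282). The CTX, HY and RT did not differ (adjusted p = 0.327, 0.247 and 0.445).

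The aged vs. adult comparison asks which of these levels differ late in life. Of the 54 tests of 6 genes in 9 zones, 28 were called higher and 1 lower in aged sections. Serpina3n was called higher in all 9 zones, Gfap in 6, Osmr in 5, Vim in 4, Cd44 in 3 and S1pr3 in 1. All 6 genes were called in the FT and no other zone had all of them. The share of all genes called higher was 18% in the FT, 8.1% in the CTX, 8.31% in the Cyp26b1-led cluster, 6.08% in the HP, 6.68% in the HY, 7.22% in the PIA, 8.35% in the RT, 8.1% in the STR and 7.57% in the TH.

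In the aged FT both filament genes were several times their adult level. Gfap went from 656 and 725 CPM in adults to 2681 and 2839 CPM in aged sections, with 451 and 543 CPM at P21. Vim went from 59.8 and 69.7 CPM to 458 and 523 CPM, with 47.6 and 43.9 CPM at P21. No aged section overlapped a younger one for either gene. The log2 fold changes were 1.9998 (SE 0.10, adjusted p = 7.29e-11, edgeR) for Gfap and 2.92 (SE 0.10, adjusted p = 8.43e-13) for Vim.

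Serpina3n, the secreted protease inhibitor, changed more in the FT than the other members did there. It was low in young white matter, with 68 and 22 UMIs in juvenile and 57 and 52 UMIs in adult sections, and had 2232 and 2663 UMIs in the aged FT. As levels this was 9.17 and 6.66 CPM (P21), 9.69 and 8.59 CPM (adult) and 441 and 480 CPM (aged). The fold change was 5.65 on the log2 scale (SE 0.12, adjusted p = 1.48e-15), or 50.3 times. White matter, which was below the hippocampus in adults, was above it in aged sections, where the HP held 99.4 and 84.8 CPM.

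The 3 receptors were also higher in the aged FT. Cd44 went from 13.4 and 15.9 CPM to 75.4 and 70.8 CPM (2.32, SE 0.13, adjusted p = 3.39e-10). Osmr went from 4.08 and 5.78 CPM to 38.3 and 41.1 CPM (3.001, SE 0.19, adjusted p = 1.00e-09). S1pr3 went from 12.9 and 7.43 CPM to 32.6 and 32.1 CPM (1.67, SE 0.20, adjusted p = 2.06e-06). Aged and younger sections did not overlap for any receptor, and the adult sections of S1pr3 lay farther apart than its aged ones. These 6 calls held under every alternative that was run.

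**Figure D2:**
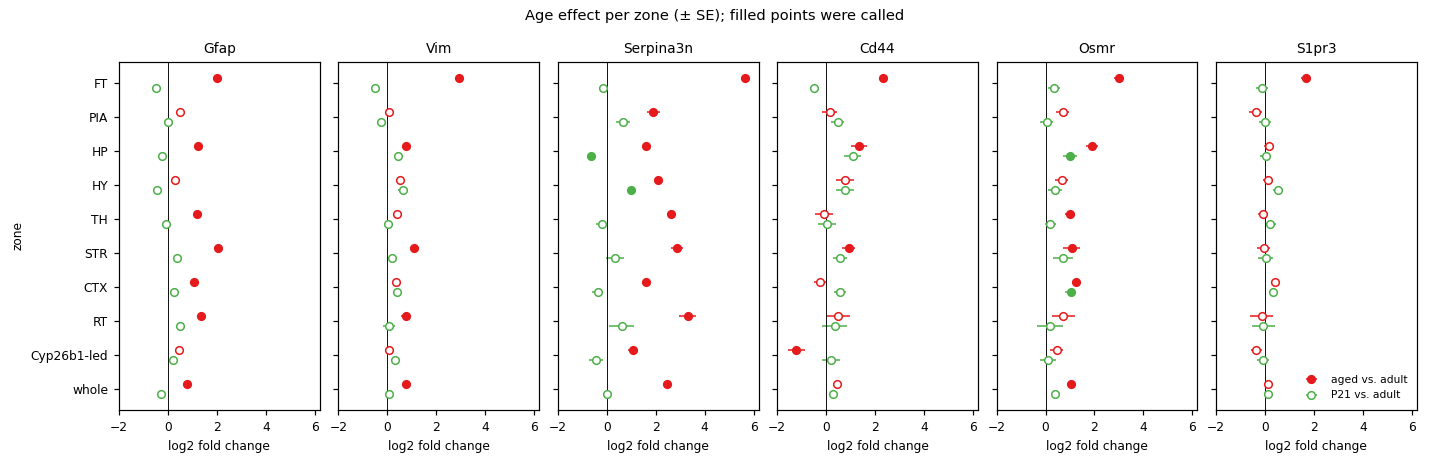
Log2 fold change of each member by zone for P21 vs. adult and aged vs. adult, with bars of 1 SE and filled points for called values. Aged vs. adult points lie at 1.67 to 5.65 in the FT, while S1pr3 has no filled point outside it.

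Outside the white matter Serpina3n and Gfap moved most widely. Serpina3n in the RT went from 5.87 and 5.34 CPM to 46.7 and 66.6 CPM (3.31, SE 0.34, adjusted p = 5.77e-09), in the STR from 3.91 and 4.45 CPM to 28.7 and 32.2 CPM (2.86, SE 0.25, adjusted p = 3.40e-07) and in the TH from 5.79 and 5.13 CPM to 37.9 and 29.7 CPM (2.63, SE 0.19, adjusted p = 5.52e-06). It also stood at 59.4 and 46.2 CPM in the aged HY against 10.4 and 14.1 CPM in adults (2.104, SE 0.18, adjusted p = 2.79e-04), and at 18.5 and 18.7 CPM in the aged CTX against 5.23 and 7.004 CPM (1.62, SE 0.19, adjusted p = 3.15e-05). The smallest of its 9 changes was in the Cyp26b1-led cluster (1.08, SE 0.21, adjusted p = 9.02e-05). Aged sections were above both adult sections in every one of these zones. The calls in the PIA (1.90, SE 0.27, adjusted p = 3.64e-05) and the Cyp26b1-led cluster were lost when each section was clustered alone (adjusted p = 0.266 and 0.212).

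Gfap in the STR went from 117 and 92.6 CPM in adults to 413 and 468 CPM in aged sections (2.07, SE 0.12, adjusted p = 2.84e-09), which is as far as it went in the FT. It rose by 1.36 in the RT (SE 0.15, adjusted p = 2.64e-08), by 1.25 in the HP (SE 0.11, adjusted p = 2.83e-05), by 1.20 in the TH (SE 0.09, adjusted p = 1.09e-05) and by 1.08 in the CTX (SE 0.11, adjusted p = 1.32e-05). In the PIA, where it was abundant at every age, it was at 885 and 818 CPM in adults and at 1088 and 1348 CPM in aged sections (0.52, SE 0.13, adjusted p = 0.00710), under the fold threshold. The HY did not pass the test, with 190 and 226 CPM in adults and 301 and 211 CPM in aged sections (0.30, SE 0.16, adjusted p = 0.209). Aged section 2 of the HY lay within the adult range.

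Vim, Cd44 and Osmr had fewer calls outside the FT, and several rested on single sections. Some were also lost in other settings (edgeR). With the UMI sums of a zone thinned to the lowest total, Osmr in the STR fell to 0.58 (adjusted p = 0.461). Vim in the RT fell to 0.64 (adjusted p = 0.158). In core spots Osmr in the STR was at 0.59 (adjusted p = 0.301). Vim was called in the STR (28.1 and 22.7 CPM in adults, 52.8 and 55.9 CPM in aged sections, 1.09, SE 0.15, adjusted p = 3.75e-05). Its calls in the HP (0.76, SE 0.15, adjusted p = 0.00291) and the RT (0.78, SE 0.21, adjusted p = 0.00721) were lost without adult section 2 (HP, 0.59, adjusted p = 0.0583), without aged section 2 (RT, 0.60, adjusted p = 0.0631) and without adult section 1 (RT, 0.72, adjusted p = 0.0581). Osmr was called in the HP (3.04 and 3.58 CPM in adults, 10.9 and 13.99 CPM in aged sections, 1.91, SE 0.25, adjusted p = 2.66e-04), in the CTX (2.26 and 2.90 CPM, then 6.26 and 6.07 CPM, 1.26, SE 0.20, adjusted p = 2.86e-04) and in the TH (0.99, SE 0.21, adjusted p = 0.00428). Its call in the STR (1.06, SE 0.34, adjusted p = 0.0256) was lost without aged section 2 (0.90, adjusted p = 0.117), adult section 1 (0.97, adjusted p = 0.149) or adult section 2 (1.16, adjusted p = 0.0805).

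Cd44 was the member that was called in opposite directions. It was called higher in the HP (1.92 and 3.43 CPM in adults, 8.37 and 5.56 CPM in aged sections, 1.33, SE 0.32, adjusted p = 0.00999) and in the STR (0.93, SE 0.26, adjusted p = 0.0118). It was called lower in the Cyp26b1-led cluster, from 4.07 and 4.14 CPM to 1.43 and 2.03 CPM (-1.22, SE 0.36, adjusted p = 0.00703), where 4.8% of all genes were called lower. These counts are small, with 12 and 24 UMIs in the adult HP. In core spots the calls were lost in the HP (0.85, adjusted p = 0.111, edgeR), the STR (0.63, adjusted p = 0.210) and the Cyp26b1-led cluster (-1.08, adjusted p = 0.164). With sums thinned to the lowest total the lower call was lost too (-0.64, adjusted p = 0.275). The HP call was lost without adult section 1 (0.996, adjusted p = 0.111), the STR call without adult section 1 (0.80, adjusted p = 0.107) or aged section 2 (0.67, adjusted p = 0.0986), and the lower call without aged section 1 (-1.01, adjusted p = 0.0615), adult section 1 (-1.23, adjusted p = 0.0534) or adult section 2 (-1.21, adjusted p = 0.0541). In the TH the adult sections stood at 18.9 and 8.19 CPM and the aged ones at 8.03 and 17.3 CPM, so these sections differed about as much within an age as between the ages. The P21 sections were both at 13.8 CPM.

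Summed over whole sections, 4 members were called higher in aged vs. adult, where 23.8% of all genes were called higher. Serpina3n went from 9.79 and 11.4 CPM to 62.4 and 56.1 CPM (2.48, SE 0.09, adjusted p = 4.51e-08), Osmr from 4.63 and 4.71 CPM to 9.50 and 9.80 CPM (1.05, SE 0.12, adjusted p = 6.65e-05), Gfap from 232 and 241 CPM to 431 and 391 CPM (0.80, SE 0.08, adjusted p = 2.20e-05) and Vim from 41.3 and 38.1 CPM to 68.4 and 66.3 CPM (0.76, SE 0.07, adjusted p = 1.30e-05). Cd44 stood at 8.92 and 7.54 CPM in adults and 10.99 and 11.3 CPM in aged sections (0.44, SE 0.11, adjusted p = 0.00525), and S1pr3 at 9.99 and 8.58 CPM and at 10.7 and 9.55 CPM (0.12, SE 0.12, adjusted p = 0.386). In the FT alone these 2 receptors differed by 2.32 and 1.67. The FT held 320 of 2917 and 384 of 3259 spots in adults and 431 of 3679 and 384 of 3569 in aged sections, a similar share. The HY held 357 and 419 spots in adults and 602 and 820 in aged sections. The plane of the cut was not measured. Because the makeup of the sections differed, the zones carry the comparison better than whole sections.

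Whether the age effect differs between zones was tested in a model of 6 zones (FT, STR, HY, TH, HP and CTX) blocked on the section so as to remove any shift that is equal over all zones of a section. All 6 members were called for aged vs. adult, from Cd44 (adjusted p = 8.13e-04, edgeR) to Serpina3n (adjusted p = 2.41e-12), and so were 38.3% of all genes. Without adult section 1 the adjusted p of Cd44 was 0.0554. The aged vs. adult effect in the FT was larger than the mean effect in the other 5 zones by 3.44 for Serpina3n (SE 0.21, adjusted p = 4.94e-12), 2.24 for Vim (SE 0.14, adjusted p = 6.24e-12), 1.78 for Osmr (SE 0.23, adjusted p = 8.06e-07), 1.73 for Cd44 (SE 0.36, adjusted p = 5.23e-04), 1.503 for S1pr3 (SE 0.20, adjusted p = 9.94e-07) and 0.78 for Gfap (SE 0.14, adjusted p = 1.28e-04), in a contrast in which 32.6% of all genes differed in either direction. Gfap also exceeded the other zones in the STR (0.90, SE 0.17, adjusted p = 0.00149) and fell behind them in the HY (-1.23, SE 0.15, adjusted p = 1.69e-05). Serpina3n fell behind in the HP (-1.37, SE 0.16, adjusted p = 9.45e-07), the zone in which adults had most of it, in the CTX (-1.33, SE 0.20, adjusted p = 3.99e-05) and in the HY (-0.77, SE 0.20, adjusted p = 0.0219). The mean of the other zones includes the FT, where Serpina3n changed by 5.65.

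Without the FT in that model, Gfap and Serpina3n were still called and the other 4 were not (adjusted p = 0.0868 for Vim, 0.254 for Cd44, 0.0829 for Osmr and 0.349 for S1pr3).

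The FT zone joined 2 spot clusters, one led by the myelin protease gene Klk6 (1264 spots) and one led by Thbs4 and the oligodendrocyte gene Opalin (854 spots). The Klk6-led cluster had 133 and 195 spots in the adult and 342 and 322 spots in the aged sections, and the Thbs4-led cluster had 187 and 189 in the adult and 89 and 62 in the aged sections, so the makeup of the zone differed with age. Each cluster was therefore tested alone. All 6 members were called higher in aged vs. adult in both clusters, where 16.4% and 10.8% of all genes were. Serpina3n differed by 5.75 (SE 0.18, adjusted p = 8.21e-15) in the Klk6-led and by 5.08 (SE 0.15, adjusted p = 3.11e-28) in the Thbs4-led cluster, and Gfap by 1.65 (SE 0.12, adjusted p = 1.11e-09) and 2.23 (SE 0.11, adjusted p = 1.19e-20). Cd44 went from 24.1 and 24.4 CPM to 82.7 and 76.9 CPM in the Klk6-led cluster and from 7.27 and 8.05 CPM to 56.4 and 55.9 CPM in the Thbs4-led cluster.

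Inside the hippocampus the members were followed in CA1 (177 spots), the dentate gyrus (DG, 235) and the spots outside these and CA3 (matrix, 1308). The matrix held 254 of 353 and 304 of 422 HP spots in adults and 157 of 286 and 126 of 239 in aged sections, so the makeup of the HP differed with age, and the change of Gfap over the whole HP (1.25) was smaller than in each of its tested parts. Of the 13 tests, 11 were called higher in aged vs. adult, against 4.16% of all genes in CA1, 3.84% in the DG and 8.2% in the matrix. Gfap went from 81.5 and 108 CPM to 315 and 422 CPM in CA1 (1.97, SE 0.16, adjusted p = 2.35e-09), from 88.7 and 115 CPM to 526 and 405 CPM in the DG (2.18, SE 0.15, adjusted p = 5.09e-08) and from 483 and 616 CPM to 1510 and 2000 CPM in the matrix (1.67, SE 0.14, adjusted p = 4.59e-08). Serpina3n in adults was higher in CA1 (40.8 and 68.8 CPM) than in the matrix (14.04 and 19.6 CPM), and the aged sections had 95.0 and 121 CPM in CA1 and 122 and 96.6 CPM in the matrix. Its difference was 2.69 in the matrix (SE 0.18, adjusted p = 2.01e-09) and 0.99 in CA1 (SE 0.20, adjusted p = 0.00174), and the CA1 call was lost without adult section 1 (0.67, adjusted p = 0.130). All 6 members were called in the matrix, Osmr by 2.15 (SE 0.31, adjusted p = 2.43e-05) and Cd44 by 1.89 (SE 0.35, adjusted p = 4.08e-04). The call of S1pr3 there (0.73, SE 0.26, adjusted p = 0.0446) was lost without any 1 of 5 sections (adjusted p = 0.0636 without aged section 1, 0.142 without aged section 2, 0.317 without adult section 2, 0.0669 without P21 section 1 and 0.0700 without P21 section 2), and so was that of Vim in the DG (1.06, SE 0.31, adjusted p = 0.0368, then 0.104 without aged section 1, 0.236 and 0.117 without adult sections 1 and 2, and 0.0755 and 0.0790 without P21 sections 1 and 2).

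P21 vs. adult asks the same of the juvenile brain. Of 54 tests, 3 were called higher and 1 lower at P21. The share of all genes called in either direction was 9.42% in the FT, 6.71% in the CTX, 4.45% in the Cyp26b1-led cluster, 7.37% in the HP, 4.94% in the HY, 4.37% in the PIA, 4.41% in the RT, 3.65% in the STR and 7.77% in the TH, so the members' share was close to that of all genes. Over whole sections no member was called, against 8.06% of all genes. In whole sections Gfap (-0.30, SE 0.08, adjusted p = 0.0165) and Osmr (0.40, SE 0.13, adjusted p = 0.0391) passed the adjusted p but not the fold threshold, and Cd44 had an unadjusted p of 0.031 (edgeR).

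Osmr was higher at P21 in the CTX, with 5.12 and 5.41 CPM against 2.26 and 2.90 CPM in adults (1.03, SE 0.22, adjusted p = 0.00540). The call was lost without adult section 1 (0.84, adjusted p = 0.0709) or P21 section 1 (1.07, adjusted p = 0.0691). In the HP it was at 5.92 and 7.86 CPM against 3.04 and 3.58 CPM (0.99, SE 0.28, adjusted p = 0.0369), a call lost without any 1 of the 4 sections compared (adjusted p = 0.193 and 0.152 without adult sections 1 and 2, and 0.119 and 0.184 without P21 sections 1 and 2). P21 and adult sections did not overlap in either zone. In the same HP sums 8 of 9 mature oligodendrocyte markers and 4 of 4 erythrocyte markers were called higher at P21, with medians of 1.55 and 2.82, and their part in the result was not tested.

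Serpina3n differed from the adult in opposite directions in the HY and the HP. In the HY it stood at 25.1 and 24.1 CPM at P21 against 10.4 and 14.1 CPM in adults (1.01, SE 0.19, adjusted p = 0.0150), and in the HP at 20.1 and 18.7 CPM against 28.1 and 32.9 CPM (-0.64, SE 0.14, adjusted p = 0.0123). The HY call was lost without adult section 1 (0.80, adjusted p = 0.129), P21 section 1 (0.98, adjusted p = 0.154) or P21 section 2 (1.04, adjusted p = 0.123), and in core spots (0.57, adjusted p = 0.255). The HP call was lost without adult section 2 (-0.52, adjusted p = 0.166), P21 section 1 (-0.71, adjusted p = 0.128) or P21 section 2 (-0.60, adjusted p = 0.0897). In the HY sums 6 of 7 ependymal markers were called higher at P21 with a median of 3.38, and their part was not tested. The difference between zones was itself called for Serpina3n in P21 vs. adult (adjusted p = 6.65e-04), as it was for Vim (adjusted p = 0.00683) and Gfap (adjusted p = 0.0176), where 10.1% of all genes were. Without adult section 2 the adjusted p was 0.165 for Vim and 0.429 for Gfap, without P21 section 1 it was 0.152 and 0.564, and without P21 section 2 it was 0.143 for Vim. With core spots alone none of the 3 was called (adjusted p = 0.105 for Serpina3n, 0.0883 for Vim and 0.0658 for Gfap).

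In the FT at P21 the filament genes were below the adult level, but under the fold threshold: Gfap at 451 and 543 CPM against 656 and 725 CPM (-0.48, SE 0.10, adjusted p = 0.00200) and Vim at 47.6 and 43.9 CPM against 59.8 and 69.7 CPM (-0.49, SE 0.12, adjusted p = 0.00511). In the Klk6-led cluster, where 4.22% of all genes were called lower, 3 members were called lower at P21. Gfap was at 524 and 617 CPM against 1044 and 927 CPM (-0.67, SE 0.12, adjusted p = 4.82e-04), Vim at 39.8 and 32.3 CPM against 81.9 and 86.2 CPM (-1.07, SE 0.15, adjusted p = 1.76e-05) and Cd44 at 11.8 and 10.1 CPM against 24.1 and 24.4 CPM (-0.99, SE 0.21, adjusted p = 0.00280). In the Thbs4-led cluster Vim differed by 0.03 (SE 0.14, adjusted p = 0.920). In the Klk6-led cluster mature oligodendrocyte markers summed to 96158 and 117232 CPM at P21 and 49640 and 46926 CPM in adults. Homeostatic astrocyte markers were at 3852 and 3636 CPM there against 5146 and 4882 CPM. The Thbs4-led cluster had oligodendrocyte sums of 74621 and 82785 CPM against 41737 and 39487 CPM. Its astrocyte sums were 4111 and 4331 CPM against 4343 and 4410 CPM. The part of these markers in the lower calls was not tested. In the hippocampal matrix Gfap was called lower at P21, with 321 and 368 CPM against 483 and 616 CPM (-0.68, SE 0.14, adjusted p = 0.00250), beside 5.75% of all genes called in either direction. That call was lost without adult section 2 (-0.48, adjusted p = 0.195) or P21 section 1 (-0.58, adjusted p = 0.158).

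The deposited tables of spatial enrichment hold Moran's I, which is near 0 for a gene spread evenly over the spots of a section and rises as neighbouring spots share its level. Serpina3n had 0.127 and 0.131 in P21 sections, 0.0593 and 0.0644 in adult and 0.587 and 0.614 in aged ones. In rank among the genes listed for a section it went from 3394 and 2929 in adults to 211 and 183 in aged sections, of 17185 to 19363 genes. Vim went from 0.181 and 0.123 in adults to 0.557 and 0.574 in aged sections. Gfap was patterned at every age, with 0.396 and 0.374 (P21), 0.484 and 0.525 (adult) and 0.763 and 0.748 (aged), and ranked 26 and 36 in the last. Cd44 (0.204 and 0.0779, then 0.305 and 0.356), Osmr (0.0201 and 0.0100, then 0.0920 and 0.141) and S1pr3 (0.0319 and 0.0022, then 0.0916 and 0.0767) had a higher I in both aged sections than in both adult ones. As a percentage of the genes listed, the rank of Cd44 was 4.47% and 14.1%, then 6.34% and 5.85%, so adult section 1 led. Osmr ranked at 40.8% and 55.6%, then 22.5% and 19.0%, and S1pr3 at 30.4% and 73.2%, then 22.5% and 29.4%. Median UMIs per spot were higher in aged sections (19580 and 25535) than in adult ones (16740 and 14603), and the part of depth in I was not tested.

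**Figure D3:**
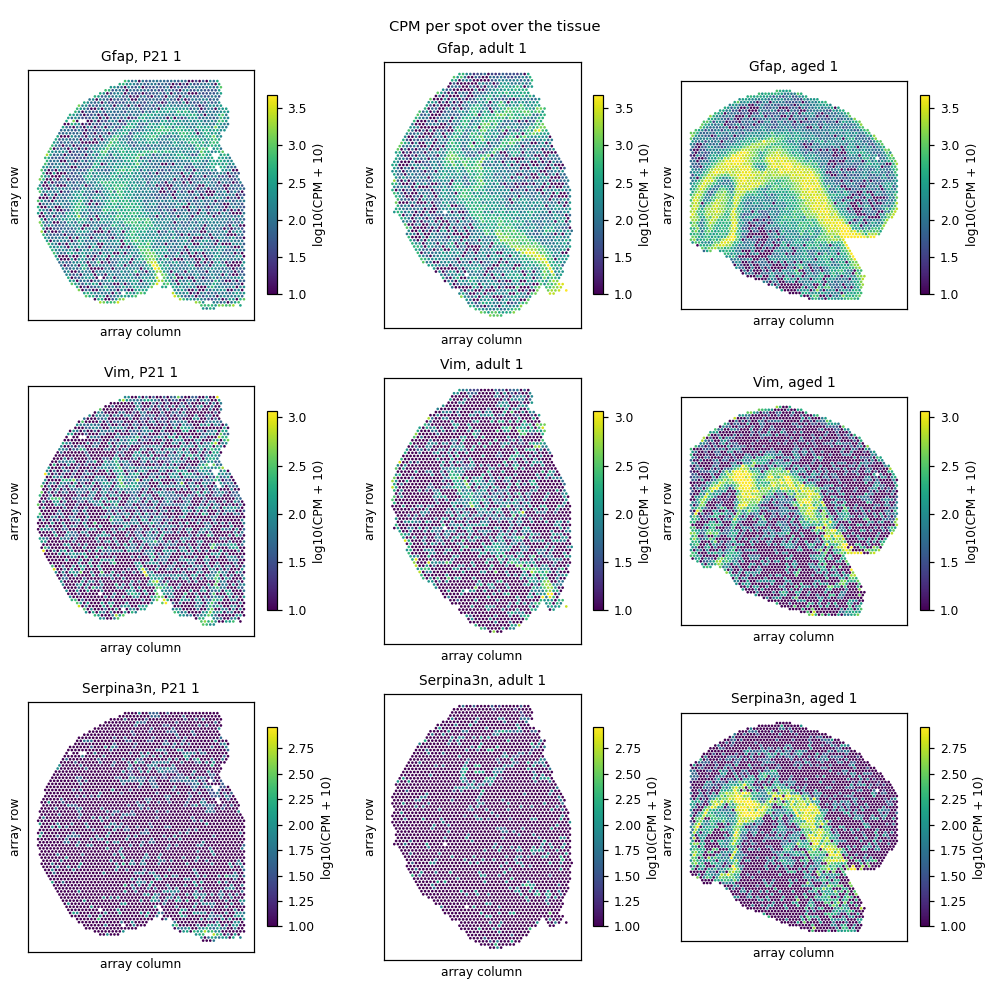
CPM of Gfap, Vim and Serpina3n per spot over section 1 of each age, as log10(CPM + 10). Serpina3n in the aged section traces the white matter, where its summed level was 441 and 480 CPM, and is low there in the adult, at 9.69 and 8.59 CPM.

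Shares of spots were compared after each spot was thinned to 5000 UMIs. Serpina3n was detected in 5.31% and 4.44% of adult and in 80.0% and 82.8% of aged FT spots, and Vim in 28.4% and 30.0% and then in 80.4% and 80.2%. Without thinning the shares of Serpina3n were 15.0% and 12.2% in adults and 93.3% and 97.7% in aged sections. The higher level in the aged white matter was therefore spread over most of its spots. Osmr was detected in 1.56% and 1.83% of adult and in 18.4% and 19.8% of aged FT spots, Cd44 in 5.94% and 7.05% and in 29.8% and 32.1%, and S1pr3 in 4.69% and 5.74% and in 13.4% and 14.4%. Gfap was already detected in 89.4% and 92.2% of adult FT spots and in 100% of the aged ones. Thinning left out 1 spot of adult section 2 and 12 and 1 spots of the aged sections, and all 6 members were also above both adult sections at 2000 UMIs.

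Levels in the CTX differed with the distance from the tracts. In the CTX spots directly next to the FT the aged sections had 642 and 738 CPM of Gfap, against 105 and 83.8 CPM at 6 or more spot steps away. The adult sections had 123 and 146 CPM next to the FT against 55.2 and 44.9 CPM far from it. Serpina3n had 59.5 and 68.5 CPM near and 13.8 and 14.4 CPM far in aged sections, but 1.35 and 6.35 CPM near and 5.46 and 5.15 CPM far in adults. Of the 6 members, 5 (all but S1pr3) were higher near than far in both aged sections, compared with 3 in adults and 4 at P21. In the HP 1 member was higher near in both adult sections and 5 in both aged sections by sums. By means of per-spot CPM these were 1 and 3. By sums the HY and the STR differed less between adult and aged sections, with 4 members higher near at both ages in the HY. In the STR there were 4 in adults and 5 in aged sections. By means of per-spot CPM the HY had 3 in adults and 5 in aged sections, so its equal counts depended on how spots were joined. These are descriptions of 2 sections per age, and a spot beside a border can hold part of the tract. Mature oligodendrocyte markers also rose toward the FT, in aged CTX from 2564 and 2904 CPM far away to 14843 and 13768 CPM next to it and in adults from 3946 and 3568 CPM to 12470.4 and 12404 CPM, and their part in the levels of the members was not tested.

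In the HP Serpina3n ran the other way in young brains. Next to the FT it was at 13.5 and 5.78 CPM at P21 and 10.2 and 13.7 CPM in adults, below the 20.5 and 18.8 CPM and the 23.4 and 22.5 CPM measured far from it. In aged sections it was at 155 and 132 CPM near and 79.5 and 62.3 CPM far. The gradient thus had the opposite sign in every aged section. The bins were not split by the parts of the HP, which differ in Serpina3n. Its mean was 16.8 CPM in the matrix and 54.8 CPM in CA1 in adults, and 109 and 108 CPM in aged sections. The part of this makeup in the gradient was not tested.

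At the tissue edge Serpina3n was above the depth at P21 but not in both sections of a later age. At P21 its level at the edge was 23.4 and 20.6 CPM against 5.63 and 3.30 CPM in the depth of the cortex. In adults it was 7.73 and 3.66 CPM against 6.34 and 7.41 CPM, and in aged sections 15.3 and 20.3 CPM against 24.8 and 25.6 CPM. The aged value depended on how spots were joined: the mean log2 ratio of edge over depth was -0.49 from sums and 0.38 from means of per-spot CPM, with aged section 1 turning from -0.66 to 0.89. The other 5 members were higher at the edge in every section, Gfap in aged sections at 789 and 895 CPM against 171 and 152 CPM. Meningeal fibroblast markers had the same direction in all sections (886 and 1211 CPM at the edge of aged sections against 19.8 and 19.7 CPM), and their part in the edge levels was not tested.

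**Figure D4:**
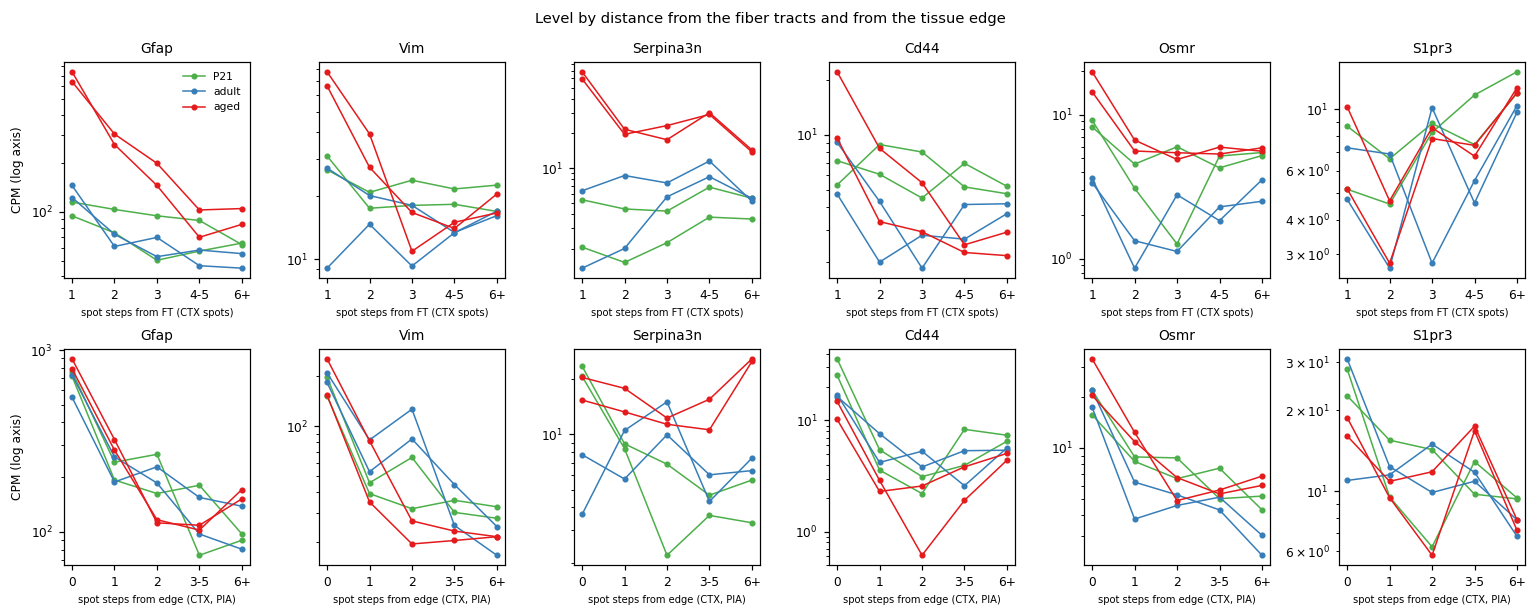
Level in CPM (log axis) of the members by hexagonal spot steps from the fiber tracts and from the tissue edge, with 1 line per section coloured by age. Aged lines of Gfap fall from 642 and 738 CPM next to the tracts to 105 and 83.8 CPM, and Serpina3n at the edge is highest at P21 relative to the depth.

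Other gene groups were read beside the members in the aged FT, where the median log2 fold change of all genes was 0.03 and 18% of all genes were called higher. Their median is given with how many of the tested genes were called, and no group was tested as a set. Of 6 other pan-reactive astrocyte genes, 6 were called higher (median 2.31), among them the small heat shock protein gene Hspb1 (2.68, SE 0.22, adjusted p = 2.67e-08), the iron-binding lipocalin Lcn2, at a mean of 0.0850 CPM in adults and 18.0 CPM in aged sections, the asparaginase Aspg (1.94, SE 0.18, adjusted p = 1.28e-07) and the protease inhibitor Timp1 (4.53, SE 0.52, adjusted p = 1.39e-06). Of 11 genes called A1 in the astrocyte literature 9 were called higher (median 1.51), including the MHC class I gene H2-D1 (3.09, SE 0.26, adjusted p = 4.12e-08) and the glucocorticoid-induced Fkbp5 (1.69, SE 0.12, adjusted p = 6.28e-09), and of 9 A2 genes 6 were (median 1.66). Of 12 homeostatic astrocyte markers, 6 were called higher with a median of 0.61, such as the transcription factor Sox9 (0.89, SE 0.10, adjusted p = 1.36e-06) and the growth factor receptor Fgfr3 (0.83, SE 0.09, adjusted p = 7.61e-07). Their summed level was 4560 and 4556 CPM in adults and 6173 and 5809 CPM in aged sections.

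The partners of the receptors moved unevenly. In the oncostatin M, IL-6 family and STAT3 list 7 of 16 tested genes were called higher and none lower (median 0.40). They included the transcription factor Stat3 (1.27, SE 0.09, adjusted p = 6.80e-09), its feedback inhibitor Socs3 (2.50, SE 0.26, adjusted p = 4.84e-07), the phosphatase Ptpn11 (1.06, SE 0.09, adjusted p = 3.21e-08) and the ligand Cntf (2.40, SE 0.24, adjusted p = 3.48e-07). Il6st, the gp130 partner of Osmr, was at a mean of 103 CPM in adults and 127 CPM in aged sections (0.31, SE 0.09, adjusted p = 0.00954, under the fold threshold), and the ciliary neurotrophic factor receptor Cntfr at 185 and 168 CPM (-0.14, SE 0.08, adjusted p = 0.184). Of 12 sphingosine-1-phosphate genes 2 were called higher in the FT (median 0.28). In the CD44 and hyaluronan list 6 of 13 were higher and 1 lower, with the osteopontin gene Spp1 at 2.54 (SE 0.15, adjusted p = 5.91e-10) and the membrane linker Msn at 1.27 (SE 0.11, adjusted p = 8.17e-08). Among 12 intermediate filament genes 3 were higher and 3 lower. Synm, a partner of vimentin, was higher (0.77, SE 0.10, adjusted p = 4.23e-06), while the neuronal filament genes Ina (-0.65, SE 0.11, adjusted p = 6.16e-05) and Nefm (-0.60, SE 0.10, adjusted p = 1.09e-04) were lower. Of the Serpina3 relatives only Serpina3m and Serpina3g could be tested, and both were called higher, from means of 0 and 0.340 CPM in adults to 5.42 and 3.17 CPM in aged sections.

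Markers of other cells differed in the same spots. Activated microglia and macrophage markers summed to 116 and 131 CPM in the adult and 708 and 981 CPM in the aged FT, and 8 of 9 were called higher (median 3.20), with the galectin Lgals3 at 4.30 (SE 0.18) and the lipid receptor Trem2 at 2.73 (SE 0.11). Homeostatic microglia markers summed to 553 and 631 CPM and to 1377 and 1359 CPM, with 6 of 10 called higher. T and B cell markers summed to 16.7 and 17.2 CPM and to 22.7 and 33.0 CPM, and 3 of 4 tested were called higher: Cd3e (mean 0 CPM in adults, 5.59 CPM in aged sections, adjusted p = 1.63e-06), Cd8a (0 and 3.42 CPM, adjusted p = 5.92e-05) and Cd3d (0.0850 and 4.05 CPM, adjusted p = 7.54e-05), all genes of T cells. The sum includes Trbc2, which was also the leading gene of a CTX spot cluster, so it is not a level of T and B cells alone. For these T cell genes, as for Lcn2 and Serpina3m, the adult mean was at or near 0. Genes listed with a Moran's I numbered 17463 and 17185 in the adult and 19357 and 19363 in the aged sections. The part of slide version and probe design in these steps from 0 was not tested. Of 8 pan-neuronal markers 6 were called lower (median -0.73), from 5625 and 5328 CPM to 2773 and 2884 CPM, and meningeal fibroblast markers summed to 109 and 90.5 CPM and to 74.0 and 72.4 CPM, with 4 of 9 lower. Mature oligodendrocyte markers summed to 43890.5 and 42365 CPM in adults and 51220 and 49106 CPM in aged sections. The 2 clusters of the FT differed in this. The Klk6-led cluster had 49640 and 46926 CPM in adults and 56131 and 53391 CPM in aged sections. The Thbs4-led cluster had 41737 and 39487 CPM and then 38363 and 38670 CPM. Neuronal, microglial and T and B cell markers were not summed per cluster, although the makeup of the FT differed with age. None of the genes in these lists was at 0 in all 6 sections. The part that these cells have in the levels of the members, Serpina3n and Gfap included, was not tested.

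**Figure D5:**
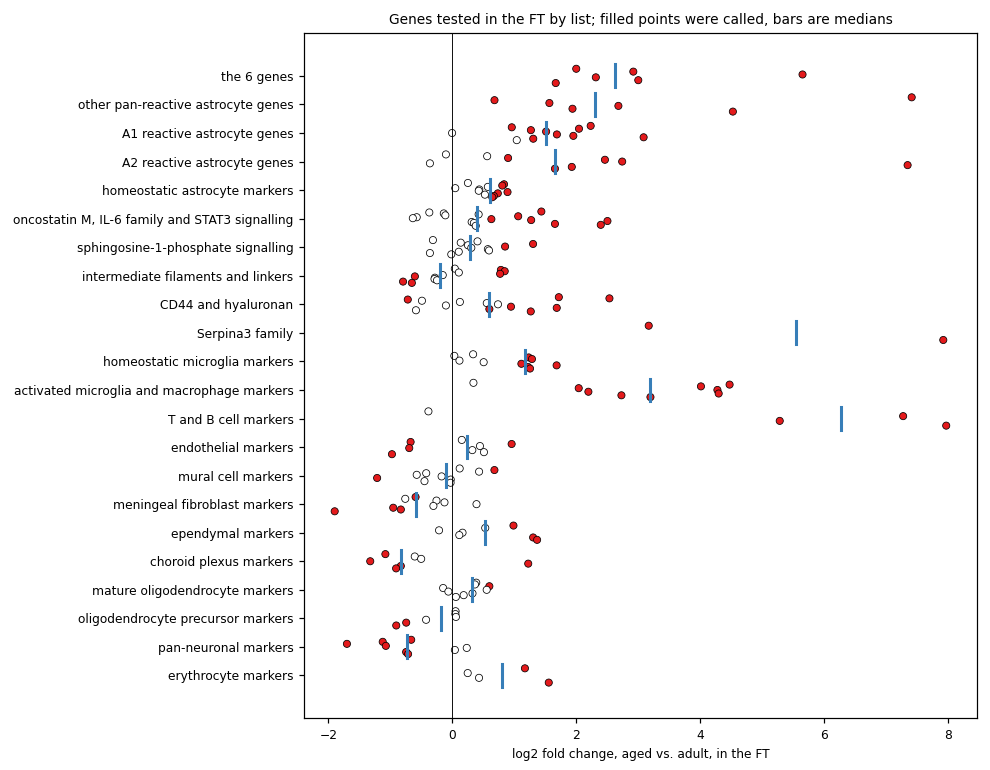
Log2 fold change, aged vs. adult, in the FT for each tested gene of the members and of each list, with the median of a list as a bar. The members lie at 1.67 to 5.65, homeostatic astrocyte markers around a median of 0.61 and pan-neuronal markers around -0.73. Points beyond 5 in the lists are genes at or near 0 in adults, whose fitted value depends on the prior count.

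The genes whose level was most like that of a member were found by Pearson's r of log2(CPM + 1) over 54 sums of section and zone, among 10320 genes with a mean of at least 10 CPM. Sums of one section share library and depth, so r is a description. Gfap was most like the stress-response transcription factor Nfe2l2 (0.916) and the NADPH oxidase subunit Cyba (0.882), and Vim like Cyba (0.955) and the annexin Anxa3 (0.950). Serpina3n was most like Cebpa (0.865) and Cebpd (0.861), both C/EBP transcription factors. Cd44 was most like the interferon gamma receptor Ifngr1 (0.819) and the leukocyte receptor Lair1 (0.807), Osmr like the proline dehydrogenase Prodh (0.870) and the lysosomal protein gene Laptm5 (0.865), and S1pr3 like Tagln2 (0.829) and Msn (0.814), both of the actin cytoskeleton. Among the members themselves r ran from 0.373 for Serpina3n with Cd44 to 0.875 for Gfap with Vim.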

How the data were processed

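The authors deposited UMI counts per gene and spot for each section, whose headers name Space Ranger 2.0.0 (P21, adult) and 3.1.1 (aged), whereas the labels name 2.1.0 and the mm10 genome throughout, and a Moran's I score per gene. Members, zones' panels and gene lists were chosen with earlier results of these data known. Spots were clustered (3000 variable genes, 10 principal components, Leiden at resolution 0.6, 0.1 within the HP) with 183 genes, the members among them, kept out. Barcodes are array positions. UMIs were summed per section and zone and tested with edgeR 4.0.16 (TMM, quasi-likelihood, 3 ages in 1 fit) in R 4.3.3. DESeq2 1.42.0, other zone definitions, filters, thinning and leaving out each section were alternatives. The scripts were tested on simulated data. With 2 sections per age, p-values rest on the spread between single mice. Levels between zones used the section as a block. Of each list at most 4 called genes with the smallest adjusted p in the zone with most calls could be named, with 2 further abundant genes for the oncostatin M and sphingosine-1-phosphate lists, and of the 3 genes most like a member the first 2 are given. Counts cover probes, so genes are not ranked by level.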

Additional observations from a re-analysis of the deposited data

Results flagged for a closer look

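The age effect differed between zones, by the test of the difference itself in edgeR (adjusted p), for 9 of the 12 combinations of member and comparison. In aged vs. adult these were Serpina3n (2.41e-12), Vim (1.12e-10), Gfap (5.70e-07), Osmr (7.74e-06), S1pr3 (3.73e-05) and Cd44 (8.13e-04). In P21 vs. adult they were Serpina3n (6.65e-04), Vim (0.00683) and Gfap (0.0176). Groups of 2 sections are too small for a test of single outlying sections.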

How the results depend on the processing

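In aged vs. adult, 20 of the 29 calls in the zones, among them all 6 in the FT, held under every alternative run. Over left-out sections their number ran from 25 to 31, in whole sections it stayed at 4, and in the hippocampal subzones it ran from 9 to 10 (11 with all sections). None of the 4 calls in P21 vs. adult held under every alternative. Their number was 7 with zones from panel scores, 0 with a test against the fold threshold (glmTreat), 7 with only the compared ages in the fit, and 2 to 7 over left-out sections, and in the subzones 0 to 2. For the difference between zones, 3 members in P21 vs. adult became 0 with core spots, 1 without the FT and 1 to 4 over left-out sections, and 6 in aged vs. adult became 2 without the FT. Calls of level between zones ran from 34 to 45 (44 with all data). Members higher near than far from the FT in both aged HP sections were 3 by the mean of per-spot CPM and 5 by sums. S1pr3 in whole aged sections ran from -0.0013 (without adult section 2) to 0.225 over left-out sections, Vim in the FT at P21 turned to 0.0279 in the Thbs4-led cluster alone, and Serpina3n at the aged edge to 0.38 by per-spot means. The causes were not tested.

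The replicate numbers did not pair the sections (correlations of deviations 0.103 for adult with P21, -0.323 for adult with aged and -0.106 for P21 with aged). With the replicate number as a block the calls were 4 and 29, as without it, and with the numbers of the aged sections crossed, chosen after seeing the data, 6 and 29. Zones with few UMIs limit the receptors most, as for Cd44 in the adult HP (12 and 24 UMIs).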

Other observations

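The ventricular system, medial habenula and CA3 had too few spots for a test, and their values are given as measured. In the ventricular system Vim stood at 220 and 202 CPM at P21, 141 and 172 CPM in adults and 600 and 632 CPM in aged sections. Serpina3n there had 3 and 1 UMIs in adults and 313 and 287 UMIs in aged sections. These are means of 2.39 and 216 CPM. Gfap went from 356 and 326 CPM to 1485 and 1407 CPM in the ventricular system. The receptors were also higher there in aged than in adult sections by their means. Cd44 was at 13.5 CPM in adults and 47.5 CPM in aged sections, Osmr at 6.67 and 26.8 CPM and S1pr3 at 18.9 and 32.0 CPM. In CA3 Serpina3n was at 59.8 and 41.3 CPM in adults and 90.4 and 88.0 CPM in aged sections, while Vim stayed low at 12.8 and 6.10 CPM and then 11.3 and 13.9 CPM. The habenula of adult section 1 held 3 spots, and Gfap was at 1012 and 621 CPM in the aged sections.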
